A study of Mus musculus with 6 samples.

Results

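The BCL2 family genes that set the balance between survival and death of the cell were followed in LSECs, the endothelial lining of the liver sinusoids, whose cells are perforated by fenestrae. The group was chosen by gene symbol and holds 10 genes, namely the anti-apoptotic genes *Bcl2*, *Bcl2l1* and *Mcl1*, the effector genes *Bax* and *Bak1*, and the BH3-only genes *Bid*, *Bad*, *Bcl2l11*, *Bbc3* and *Pmaip1*. All 10 were found among the 23282 rows of the count files, and all 10 passed the filter on low counts, as did 11583 rows in all. RNA was sequenced in 3 libraries from *Txnip-/-* mice, total knockouts on a C57BL/6J background, and in 3 libraries from WT C57BL/6J mice. The cells came from a density gradient of the non-parenchymal liver fraction and were selected with CD146 magnetic beads. The paper kept its animals on standard rodent chow, and names no ethanol diet or other treatment for these libraries. The age of these mice and how many mice made a library are not given. The isolation methods put the selected LSECs into endothelial growth medium, and the RNA methods name isolated LSECs without a time in culture. Since nothing states that the libraries of a genotype came from separate mice, the p-values measure the spread between these libraries only.

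BCL2 family proteins meet at the outer mitochondrial membrane. BCL2, BCL-XL (encoded by *Bcl2l1*) and MCL1 hold the effectors BAX and BAK in check, and BH3-only proteins, which share with the rest of the family a single short helix, relieve this brake or activate the effectors directly. Free BAX and BAK open the membrane, cytochrome c leaves the mitochondrion, and the caspases are switched on. In the liver, loss of BCL-XL or MCL1 from hepatocytes is known to cause their apoptosis, and LSECs are known to be sensitive to cold ischemia and reperfusion. TXNIP, the protein lost here, binds and inhibits thioredoxin.

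The libraries held between 9147764 and 10193952 counts. *Txnip* had 191 to 269 counts in the *Txnip-/-* libraries and 1901 to 2019 in the WT libraries, so the labels matched the genotype. All 8 LSEC markers and all 7 endothelial markers on the lists used passed the filter, and 3 of the 8 LSEC markers and 0 of the 7 endothelial markers were lower in *Txnip-/-* LSECs at an adjusted p under 0.05 (edgeR), where 0.976% of all genes tested were. WT replicates 1 and 2 differed from the remaining 4 libraries. The summed LSEC markers reached 4627 and 4943 CPM in them against 2319 to 2853 CPM elsewhere. Most of this sum was *Lyve1*, with 3482 and 3780 CPM in them against 1475 to 1976 CPM elsewhere. For *Stab1*, *Stab2*, *Fcgr2b*, *Mrc1* and *Dnase1l3* WT replicate 3 lay above every *Txnip-/-* library, and for *Clec4g* and *Oit3* it did not. The ribosomal RNA row *Rn45s* took a smaller share of the counts of WT replicates 1 and 2 (10.03% and 9.68%, against 16.8% to 18.6%). Levels are given as CPM, counts scaled to a common library size with the TMM factors of edgeR. The reads come from the 3′ ends of transcripts, so a transcript gives about 1 read whatever its length, and levels of different genes were set side by side on this CPM scale without division by length. The same property hides splice forms, so the long and short forms of *Bcl2l1*, *Mcl1* and *Bcl2l11*, which differ in activity, were counted together.

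To ask whether loss of *Txnip* moved the survival and death genes, *Txnip-/-* was set against WT in the quasi-likelihood test of edgeR over all 11583 genes. Among the 10 BCL2 family genes, 0 passed an adjusted p of 0.05, where 1.55% of all genes tested did (0.57% higher and 0.976% lower). With a fold change above 1.3 asked for as well, the count was 0, beside 1.44% of all genes. At an unadjusted p under 0.05 the count was also 0 in edgeR, DESeq2 and limma, against 11.5% of all genes tested in edgeR. The log2 fold changes (*Txnip-/-* over WT) lay between -0.37 (*Pmaip1*) and 0.15 (*Bid*), 2 above 0 and 8 below it. Without *Txnip-/-* replicate 3 they were 5 and 5, with a median of -0.0074, and without *Txnip-/-* replicate 1 they were 4 and 6, with a median of -0.035. With all 6 libraries the median was -0.11, beside -2.75e-05 for all genes tested, and the median of their absolute values was 0.14, beside 0.17 for all genes. A p that misses the threshold does not show equal levels, so the 95% interval of each fold change is given with it. It stayed within 1.3-fold in either direction for 4 genes (*Bcl2l1*, *Mcl1*, *Bak1* and *Bad*), within 1.5-fold for 7 and within 2-fold for 9, the exception being *Pmaip1*.

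**Figure D1:**
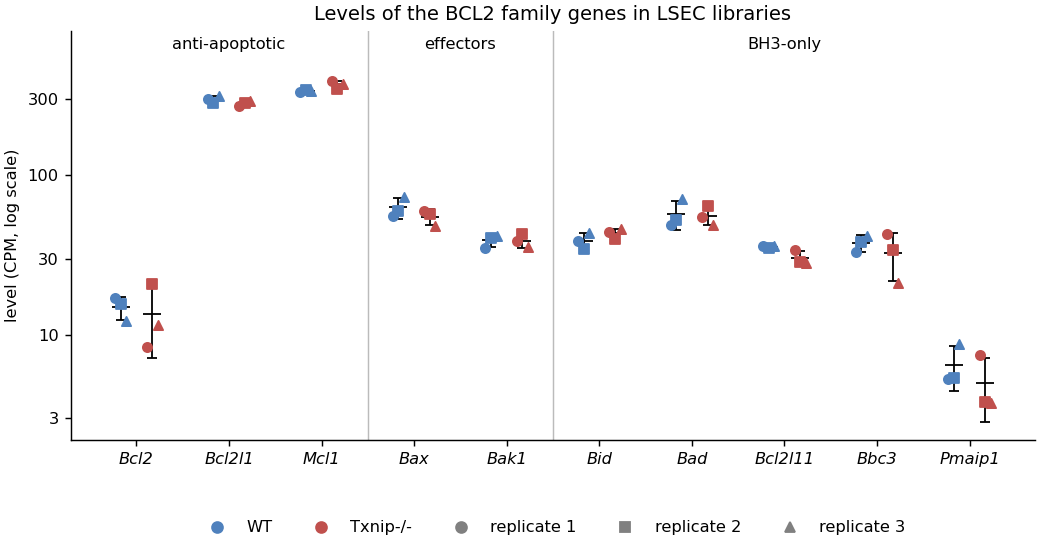
Levels of the 10 BCL2 family genes in CPM on a log axis, with 1 point per library (blue for WT, red for *Txnip-/-*, marker shape for the replicate number), and black lines for the mean ± SD of 3 libraries. *Mcl1* and *Bcl2l1* sit at 271 to 392 CPM in both genotypes, *Pmaip1* lies under 9 CPM, and the genotypes overlap for 8 of the 10 genes.

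*Mcl1* encodes a short-lived anti-apoptotic protein and was the most abundant of the 10 transcripts. On GRCm38 it occupies chromosome 3, 95658788 to 95663176, plus strand. Its levels were 392, 348 and 373 CPM in the *Txnip-/-* libraries and 331, 345 and 339 CPM in the WT libraries. The lowest *Txnip-/-* library stood just above the highest WT library, so the genotypes did not overlap. The means were 371 ± 21.9 and 338 ± 7.25 CPM (SD, n = 3 each), a fold change of 1.10 with an interval from 0.97 to 1.24 (log2 fold change 0.13 ± 0.08, SE, adjusted p = 0.589, edgeR).
*Bcl2l1*, whose long form BCL-XL protects mitochondria, followed on chromosome 2 (152780668 to 152831728, minus strand). Its levels were 271, 284 and 292 CPM in the *Txnip-/-* libraries and 299, 285 and 312 CPM in the WT libraries. The ranges overlapped. *Txnip-/-* over WT gave a fold change of 0.95 with an interval from 0.84 to 1.07 (log2 fold change -0.08 ± 0.08, SE, adjusted p = 0.801, edgeR), and only *Mcl1* had a smaller standard error among the 10.
*Bcl2*, the founding member of the family (chromosome 1, 106538178 to 106714274, minus strand), was far less abundant. It had 8.37, 20.8 and 11.5 CPM in the *Txnip-/-* libraries and 16.9, 15.6 and 12.2 CPM in the WT libraries. *Txnip-/-* replicate 2 was the highest of the 6 libraries and *Txnip-/-* replicates 1 and 3 were the lowest, so the knockout libraries enclosed the WT range. The coefficient of variation was 47.5% in *Txnip-/-* and 16.5% in WT LSECs. The fold change was 0.91 with an interval from 0.60 to 1.39 (log2 fold change -0.13 ± 0.29, SE, adjusted p = 0.915, edgeR). Without *Txnip-/-* replicate 2 the log2 fold change was -0.58 (unadjusted p = 0.0471, adjusted p = 0.459, edgeR), and without *Txnip-/-* replicate 1 it was 0.12, so single libraries decided its size and direction.

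The effectors BAX and BAK form the pore in the outer membrane. *Bax* (chromosome 7, 45461697 to 45466898, minus strand) had 59.7, 56.9 and 47.8 CPM in the *Txnip-/-* libraries and 55.4, 59.8 and 73.3 CPM in the WT libraries. WT replicate 3 was the highest and *Txnip-/-* replicate 3 the lowest. *Txnip-/-* over WT gave a fold change of 0.87 with an interval from 0.71 to 1.07 (log2 fold change -0.20 ± 0.14, SE, adjusted p = 0.645, edgeR). When WT replicates 1 and 2 were given a coefficient of their own, which leaves WT replicate 3 as the WT level, it was -0.42 on the log2 scale (unadjusted p = 0.0192, adjusted p = 0.236, edgeR), and without WT replicate 3 it was -0.073. *Bak1* (chromosome 17, 27019810 to 27029009, minus strand) had 38.5, 43.0 and 35.4 CPM in the *Txnip-/-* libraries and 35.0, 40.5 and 41.6 CPM in the WT libraries. The means were 39.0 ± 3.83 and 39.0 ± 3.498 CPM (SD, n = 3 each), and the interval of the fold change ran from 0.81 to 1.23 (adjusted p = 0.998, edgeR). The sign of so small a difference turned with the scaling.

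Of the BH3-only genes, *Bcl2l11* encodes BIM, which binds every anti-apoptotic member and activates BAX and BAK. The gene occupies chromosome 2, 128126038 to 128162547, plus strand. Its levels were 33.8, 28.5 and 28.2 CPM in the *Txnip-/-* libraries and 35.8, 34.9 and 35.96 CPM in the WT libraries. All *Txnip-/-* libraries lay below all WT libraries. The WT libraries varied by 1.68% (coefficient of variation) and the *Txnip-/-* libraries by 10.4%. With 340 to 368 counts in the WT libraries counting error alone is larger than 1.68%, so this value does not show a tighter WT level. The fold change was 0.85 with an interval from 0.68 to 1.06 (log2 fold change -0.24 ± 0.15, SE, adjusted p = 0.598, edgeR). *Bcl2l11* and *Mcl1* were thus the 2 of 10 genes without overlap between the genotypes, in opposite directions, where 17.4% of all genes tested had none (8.43% higher and 8.94% lower in *Txnip-/-*).
*Bbc3* encodes PUMA, a target of p53 that binds every anti-apoptotic member (chromosome 7, 16308393 to 16318205, plus strand). It had 42.8, 33.8 and 21.1 CPM in the *Txnip-/-* libraries and 32.9, 38.4 and 41.9 CPM in the WT libraries. The knockout libraries held the highest and the lowest value of the 6. *Txnip-/-* over WT gave a fold change of 0.86 with an interval from 0.64 to 1.16 (log2 fold change -0.21 ± 0.20, SE, adjusted p = 0.777, edgeR). It was -0.46 on the log2 scale without *Txnip-/-* replicate 1 (unadjusted p = 0.0441, adjusted p = 0.449, edgeR) and 0.018 without *Txnip-/-* replicate 3.
*Pmaip1*, which encodes NOXA, a partner of MCL1, is on chromosome 18 and was the least abundant of the 10 genes. Knockout libraries held 67, 37 and 35 of its counts, against 54, 56 and 83 for WT, or 3.74 to 7.48 and 5.26 to 8.78 CPM. Its ranges overlapped and its interval was the widest, from 0.43 to 1.38 (log2 fold change -0.37 ± 0.40, SE, adjusted p = 0.81, edgeR), so that a fall by 2-fold lay within it at this depth. The log2 fold change was -0.78 without *Txnip-/-* replicate 1, -0.087 without WT replicate 3 and -0.81 when WT replicates 1 and 2 had their own coefficient.

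*Bid* and *Bad* connect other signals to the mitochondrion. BID is cut by caspase 8 below the death receptors, and BAD is kept inactive by phosphorylation downstream of growth factors, and neither step can be seen in RNA. *Bid* (chromosome 6, 120891930 to 120916853, minus strand) had 44.0, 39.7 and 45.9 CPM in the *Txnip-/-* libraries and 38.9, 34.5 and 43.4 CPM in the WT libraries, with overlap. The fold change was 1.11 with an interval from 0.90 to 1.36 (adjusted p = 0.773, edgeR). *Bad* (chromosome 19, 6941861 to 6951899, plus strand) had 54.8, 63.8 and 49.1 CPM in the *Txnip-/-* libraries and 49.1, 52.1 and 70.7 CPM in the WT libraries. WT replicate 3 was the highest, as it was for *Bax*, *Pmaip1*, *Bcl2l11* and the anti-apoptotic *Bcl2l1*. *Txnip-/-* over WT gave a fold change of 0.98 with an interval from 0.78 to 1.22 (log2 fold change -0.033, adjusted p = 0.96, edgeR), and the log2 fold change was 0.14 without WT replicate 3.

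**Figure D2:**
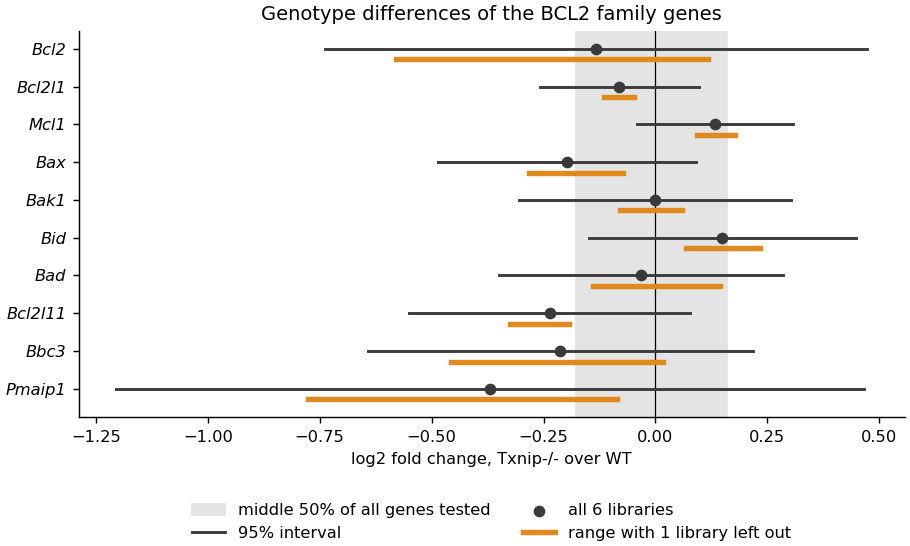
Log2 fold change (*Txnip-/-* over WT, horizontal axis) of each BCL2 family gene, with a black point and line for the edgeR value and its 95% interval over 6 libraries, an orange line for the range when each library is left out in turn, and a grey band for the middle 50% of all genes tested (-0.18 to 0.16). Every black line crosses 0, and the lines are shortest for *Mcl1* and *Bcl2l1* and longest for *Pmaip1*.

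Over the 6 libraries the levels fell into steps. *Mcl1* (331 to 392 CPM) stood above *Bcl2l1* (271 to 312 CPM), and no library of one reached the range of the other. Next came *Bax* and *Bad*, whose ranges overlapped each other but not that of *Bid*. *Bid*, *Bak1*, *Bbc3* and *Bcl2l11* each overlapped their neighbours in this order, between 21.1 and 45.9 CPM. *Bcl2* and *Pmaip1* closed the order and overlapped each other. Among the 11583 genes tested *Mcl1* and *Bcl2l1* were at percentiles 96.7 and 95.6 of the mean CPM, and *Bcl2* and *Pmaip1* at percentiles 38.6 and 21.1.
As a share of the summed CPM of the 10 genes, the anti-apoptotic genes made up 71.9% ± 2.27 in *Txnip-/-* and 70.2% ± 2.14 in WT LSECs (SD, n = 3 each). The effectors made up 10.1% ± 0.85 and 10.9% ± 0.84, and the BH3-only genes 17.97% ± 1.503 and 18.9% ± 1.39. The genotypes overlapped in each of these shares. The summed level was 927 ± 22.4 CPM in *Txnip-/-* and 930 ± 43.5 CPM in WT LSECs.
The ratio of *Bcl2* to *Bax*, often quoted as an index of the balance, came to 0.14, 0.37 and 0.24 for *Txnip-/-* against 0.31, 0.26 and 0.17 for WT. The knockout range enclosed the WT range. The ratio of *Bcl2l1* to *Bax* came to 4.53, 4.99 and 6.12 for *Txnip-/-* against 5.39, 4.77 and 4.26 for WT, again with overlap. *Mcl1* exceeded *Bcl2l1* by 1.45, 1.23 and 1.28 times in knockout and by 1.11, 1.21 and 1.09 times in WT libraries. The ratios of *Mcl1* to *Bcl2l1* did not overlap between the genotypes. The other ratios computed did, those of *Mcl1* to *Bak1*, *Mcl1* to *Pmaip1* and *Bcl2l1* to *Bcl2l11* included. All these ratios are a description and were not tested.

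**Figure D3:**
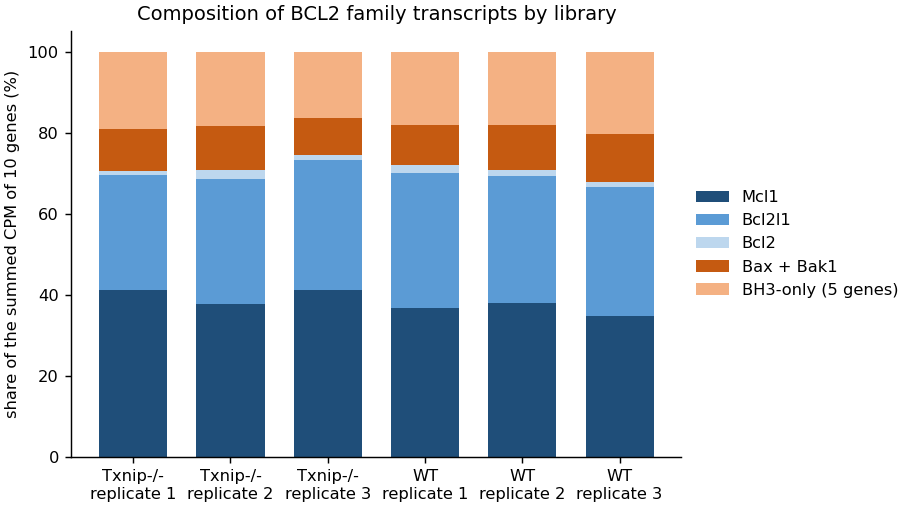
Share of the summed CPM of the 10 genes (percent, vertical axis) held by *Mcl1*, *Bcl2l1*, *Bcl2*, the effectors *Bax* and *Bak1*, and the 5 BH3-only genes, as 1 stacked bar per library. *Mcl1* holds 37.7% to 41.1% in the *Txnip-/-* libraries and 34.6% to 37.9% in the WT libraries, and the BH3-only share is between 16.3% and 20.5% in all 6.

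Promoter windows of *Mcl1* and *Bcl2l11*, the genes without overlap between the genotypes, are shown as a description. Reads from 3′ ends do not tell which start site a transcript used, so the counts are not tied to these windows. RefSeq on GRCm38.p6 gave windows of 300 bases, from 250 before a start to 50 after it, for 9 of the 10 genes and 15 start sites. The *Mcl1* window is chr3:95658471-95658770 on the plus strand and the *Bcl2l11* window, the first of its pair, is chr2:128125788-128126087 on the plus strand. Capitals mark GC boxes (GGGCGG) and CCAAT boxes (CCAAT), both searched on both strands.
Mcl1: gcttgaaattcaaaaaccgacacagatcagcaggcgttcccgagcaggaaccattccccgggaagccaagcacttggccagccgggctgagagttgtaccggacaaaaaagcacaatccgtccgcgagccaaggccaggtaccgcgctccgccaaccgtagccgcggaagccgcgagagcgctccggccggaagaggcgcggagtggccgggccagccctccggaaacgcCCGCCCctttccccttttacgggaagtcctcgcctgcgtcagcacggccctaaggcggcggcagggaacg
Bcl2l11: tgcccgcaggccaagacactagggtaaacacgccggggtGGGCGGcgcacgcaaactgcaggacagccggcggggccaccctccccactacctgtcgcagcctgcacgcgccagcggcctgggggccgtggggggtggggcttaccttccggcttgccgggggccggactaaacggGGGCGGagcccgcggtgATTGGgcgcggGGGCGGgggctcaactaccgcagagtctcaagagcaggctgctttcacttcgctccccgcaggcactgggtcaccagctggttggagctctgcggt
The *Mcl1* window held 1 GC box and the *Bcl2l11* window 3 GC boxes and 1 CCAAT box. GC boxes stood in 10 of the 15 windows (the first of *Bad* and all those of *Bax*, *Bbc3*, *Bcl2*, *Bcl2l11*, *Bid* and *Mcl1*), against 35.7% of 32851 windows of the same length. The TATA box (TATAAA), an AP-1 motif (TGANTCA) and an NF-kB motif (GGGA, any 2 bases, TTCC) stood in 0 of the 15 windows, and in 13.6%, 7.81% and 1.47% of all windows. A match is a description of the letters, and windows of 1 gene are not independent.

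The rest of the family was described by a list of 16 further genes, of which 12 passed the filter. *Bcl2a1b*, which encodes a copy of A1, an anti-apoptotic protein induced by NF-kB in blood cells and endothelium, was the 1 gene of the list that passed an adjusted p of 0.05, and it fell. It had 3.57, 2.45 and 3.10 CPM in the *Txnip-/-* libraries and 11.7, 10.3 and 7.62 CPM in the WT libraries. All *Txnip-/-* libraries lay well below all WT libraries. The log2 fold change was -1.70 (standard error 0.35, adjusted p = 0.0155, edgeR). The call was lost without *Txnip-/-* replicate 2, WT replicate 1 or WT replicate 2 (log2 fold changes -1.56, -1.56 and -1.67, adjusted p = 0.0694, 0.164 and 0.0925, edgeR) and when WT replicates 1 and 2 had their own coefficient (log2 fold change -1.32, adjusted p = 0.165, edgeR).
The copies *Bcl2a1a* and *Bcl2a1d* had similar log2 fold changes of -1.72 and -1.72 at lower counts and did not pass (adjusted p = 0.415 and 0.159, edgeR), and *Bcl2a1c* had 0 counts in all libraries. These rows cannot be taken as separate measurements, though how many reads they share was not measured. The last 500 bases of the *Bcl2a1b* transcript matched those of *Bcl2a1a* with 98.8% and those of *Bcl2a1d* with 99.4% identity. The authors counted reads with several alignments, so 1 read may have entered more than 1 row. How many alignments of a read were kept is not stated. The 3′ end of *Bcl2a1b* also overlaps an exon of *Gm29094* on the same strand. None of the 10 BCL2 family genes had such a copy at 95% identity over 75 bases or more, nor an exon of another gene at its 3′ end, in GENCODE M21.

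The likeness extends to the promoters, shown here because rows of near-identical copies carry the 1 call of this list. The stretches lie on chromosome 9 of GRCm38.p6, at chr9:89199023-89199222 (plus strand) for *Bcl2a1b*, chr9:88956714-88956913 (plus strand) for *Bcl2a1a* and chr9:88731857-88732050 (minus strand) for *Bcl2a1d*, and capitals mark bases that differ from *Bcl2a1b*.
Bcl2a1b: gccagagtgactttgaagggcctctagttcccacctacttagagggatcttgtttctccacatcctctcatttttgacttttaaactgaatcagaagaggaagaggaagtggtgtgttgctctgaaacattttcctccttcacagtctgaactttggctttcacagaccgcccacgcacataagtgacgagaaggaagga
Bcl2a1a: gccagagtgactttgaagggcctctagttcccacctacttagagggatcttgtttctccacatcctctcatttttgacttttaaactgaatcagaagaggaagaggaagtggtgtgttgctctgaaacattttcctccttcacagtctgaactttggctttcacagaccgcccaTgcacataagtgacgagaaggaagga
Bcl2a1d: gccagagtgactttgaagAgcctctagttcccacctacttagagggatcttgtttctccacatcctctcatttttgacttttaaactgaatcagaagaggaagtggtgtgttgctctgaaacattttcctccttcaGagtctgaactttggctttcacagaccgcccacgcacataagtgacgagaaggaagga
*Bcl2a1a* differed from *Bcl2a1b* at 1 of 200 bases. *Bcl2a1d* differed at 2 bases and lacked 6, so its stretch has 194.

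The 3 rows together held 55, 35 and 58 counts for *Txnip-/-*, against 190, 199 and 138 for WT. A read may have entered this sum more than once, which the sources do not settle, so the sum is not taken as a number of A1 transcripts. The summed level was 5.30 ± 1.503 CPM in *Txnip-/-* and 17.3 ± 2.40 CPM in WT LSECs (SD, n = 3 each), a sum described without a test. Markers of Kupffer cells and other macrophages fell with it. Of 12 such markers 11 passed the filter and 10 of these were lower at an adjusted p under 0.05 (edgeR), where 0.976% of all genes tested were lower. Their summed level was 301 to 333.5 CPM in the *Txnip-/-* and 725 to 757 CPM in the WT libraries, and 0 of the 12 were at 0 in all libraries. Kupffer cells were taken from the fraction that the CD146 beads did not retain, while these markers were still counted in the LSEC libraries. Stellate cell markers, summed, went the other way, with 42.4 to 55.7 CPM in *Txnip-/-* and 21.9 to 27.1 CPM in WT libraries, and 1 of the 7 tested (*Dcn*) was higher at an adjusted p under 0.05 (edgeR), where 0.57% of all genes tested were. Neutrophil markers, also of cells rich in A1, were near 0, with 5 of the 7 measured at 0 in all libraries and a sum of at most 1.53 CPM. The part of macrophages in the fall of *Bcl2a1b* was not tested, and in these bulk samples fewer cells of a type and less RNA per cell cannot be told apart.

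**Figure D4:**
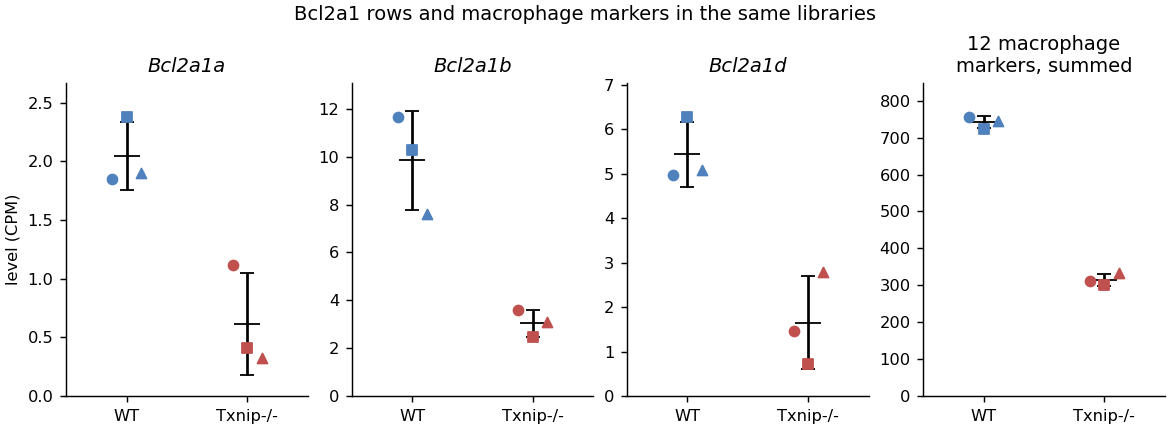
Levels in CPM of the *Bcl2a1a*, *Bcl2a1b* and *Bcl2a1d* rows and the summed CPM of 12 macrophage markers, each on its own linear axis from 0, with 1 point per library (blue for WT, red for *Txnip-/-*) and black lines for the mean ± SD of 3 libraries. In all 4 panels every *Txnip-/-* library lies below every WT library, and the marker sum is 301 to 333.5 CPM against 725 to 757 CPM.

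Of the other genes on this list, *Bok*, an effector-like gene, had 5.25, 4.79 and 5.35 CPM in the *Txnip-/-* and 10.22, 7.62 and 9.20 CPM in the WT libraries (log2 fold change -0.81 ± 0.31, SE, unadjusted p = 0.0167, adjusted p = 0.283, edgeR). The genotypes did not overlap, where 17.4% of all genes tested had no overlap, and the difference did not pass the adjusted threshold. *Bcl2l15* counts were few, 11, 16 and 30 for *Txnip-/-* against 8, 2 and 4 for WT (log2 fold change 2.09 ± 0.85, SE, adjusted p = 0.325, edgeR). *Bcl2l10* and *Hrk* had 0 counts in all libraries, where 3 counts, taken as the floor, equal 0.286 to 0.335 CPM, and *Bcl2l14* had at most 2 counts. The median log2 fold change of the 12 genes was -0.32, with the *Bcl2a1* copies, which can share reads, among them. The BCL2 relatives *Bnip3*, *Bnip3l*, *Bcl2l13* and *Bcl2l2* lay between -0.24 and 0.18, and *Bik* and *Bmf* at -0.40 and -0.44, with none of the 6 at an unadjusted p under 0.05.

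Below the mitochondrion, 0 of 14 genes of the cytochrome c and caspase step passed the test, adjusted or not, and their log2 fold changes lay between -0.28 (*Dffb*, a nuclease) and 0.14, with a median of 0.05. *Apaf1*, the core of the apoptosome, had a log2 fold change of -0.03 (interval -0.29 to 0.22).
Among 12 inhibitor of apoptosis genes and their antagonists 0 passed the adjusted test. *Birc3*, which encodes cIAP2 and is a known target of NF-kB, came closest. It had 48.9, 52.1 and 49.7 CPM in the *Txnip-/-* libraries and 34.2, 39.2 and 34.3 CPM in the WT libraries, without overlap. The log2 fold change was 0.49 (standard error 0.13, unadjusted p = 0.00197, adjusted p = 0.0917, edgeR). *Xiap*, the most abundant of the 12, had a log2 fold change of 0.13 (adjusted p = 0.588, edgeR).
Of 13 genes of death receptors and their adaptors 11 passed the filter and 0 passed the test, adjusted or not. Their median log2 fold change was -0.03. *Fas* had a log2 fold change of -0.08 and *Casp8*, the protease that cuts BID, of -0.19. *Cflar*, the inhibitor of caspase 8, had 352 ± 14.2 CPM in *Txnip-/-* and 319 ± 11.1 CPM in WT LSECs without overlap (log2 fold change 0.14, adjusted p = 0.55, edgeR).

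**Figure D5:**
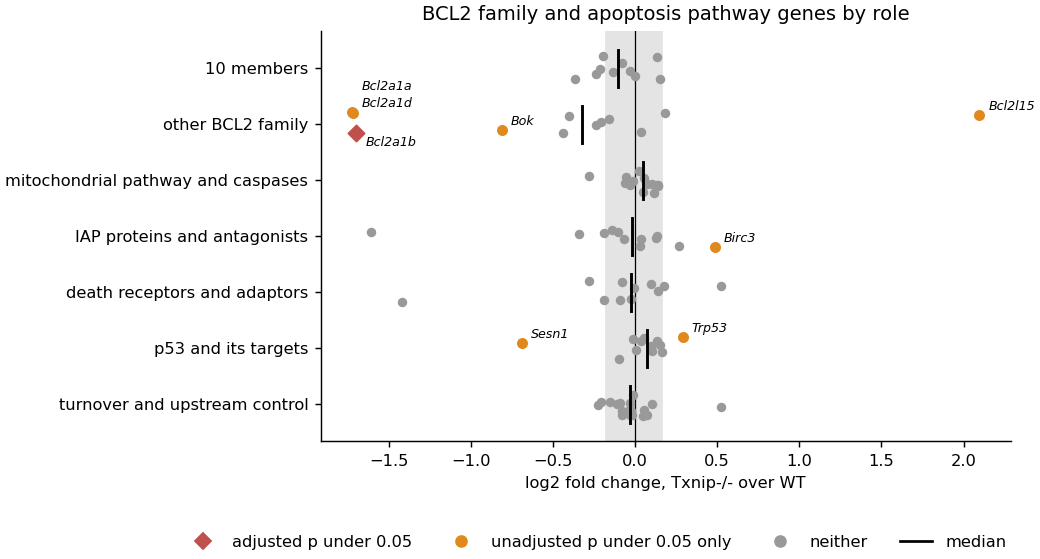
Log2 fold change (*Txnip-/-* over WT, horizontal axis) of the 10 BCL2 family genes and of each tested gene on 6 lists of apoptosis genes, with red diamonds for an adjusted p under 0.05, orange points for an unadjusted p under 0.05 only, grey points for neither, black lines for list medians, and a grey band for the middle 50% of all genes tested. *Bcl2a1b* is the single red diamond, and the medians of the lists lie between -0.32 and 0.08.

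Of 14 genes of p53 and its targets 12 passed the filter, 0 passed the adjusted test and the median log2 fold change was 0.08. *Trp53* had a log2 fold change of 0.29 (unadjusted p = 0.032, adjusted p = 0.366, edgeR) with overlap between the genotypes. *Sesn1* had 10.8, 8.26 and 10.3 CPM in the *Txnip-/-* libraries, 19.8 and 16.8 CPM in WT replicates 1 and 2 and 10.8 CPM in WT replicate 3 (log2 fold change -0.69, unadjusted p = 0.0161, adjusted p = 0.283, edgeR). WT replicate 3 sat with the *Txnip-/-* libraries. *Cdkn1a* and *Mdm2*, the best known p53 targets beside *Bbc3*, *Pmaip1* and *Bax*, had log2 fold changes of 0.05 and 0.10 (adjusted p = 0.869 and 0.794, edgeR).
Of 18 genes listed under turnover and upstream control of family members 0 passed the test, adjusted or not. *Huwe1*, *Fbxw7* and *Usp9x*, which add ubiquitin to MCL1 or remove it, had log2 fold changes of -0.08, -0.09 and -0.03. *Foxo3*, a transcription factor of *Bcl2l11*, had 16 to 32 counts in the *Txnip-/-* and 9 to 24 counts in the WT libraries and a log2 fold change of 0.52 with an interval from -0.79 to 1.83. *Foxo1* had 60.6 ± 5.18 CPM in *Txnip-/-* and 70.0 ± 1.16 CPM in WT LSECs without overlap (log2 fold change -0.21, adjusted p = 0.531, edgeR). *Mapk8* and *Mapk9*, the JNK genes whose products phosphorylate BIM, had log2 fold changes of -0.03 and -0.08. Over all 6 lists 1 of 79 tested genes passed the adjusted test, where 1.55% of all genes did, and 8 had an unadjusted p under 0.05 (3 higher and 5 lower), where 11.5% of all genes did. Of the 5 lower genes 3 are the *Bcl2a1* rows, which can share reads. For 12 of the 79 tested genes, *Birc3*, *Cflar* and *Foxo1* among them, the genotypes did not overlap, where 17.4% of all genes tested had no overlap.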

How the data were processed

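RNA of 3 *Txnip-/-* and 3 WT LSEC libraries was measured with the QuantSeq 3′ mRNA-Seq kit. The authors aligned the single-end reads with Bowtie2, with mm10 (GRCm38) named in the submitters' processing notes, used Bedtools to count reads per gene, those with several alignments included, and deposited these whole-number counts without normalization. Versions, the gene annotation and the use of strand are not given in the sources used here.

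In R 4.3.3, edgeR 4.0.16 was run on the 23282 rows (44 repeat a symbol and were kept apart) with filterByExpr (11583 genes), TMM, glmQLFit and glmQLFTest. The design held genotype alone, and p-values were adjusted by Benjamini-Hochberg over all genes tested. Genes were called at an adjusted p under 0.05. The square root of each F statistic and the log2 fold change gave the standard error, and this the 95% interval. Totals of 9147764 to 10193952 counts make 3 counts equal 0.286 to 0.335 CPM on the TMM-scaled CPM used here, which covers counting error only. WT replicates 1 and 2 differed by more than the sampling noise (chi-square of 3.93 per degree of freedom) and were kept as 2 libraries. This was the lowest value of all pairs, and it cannot tell whether they came from separate mice. Pairs of *Txnip-/-* libraries gave 8.41 to 9.62. WT replicate 3 gave 36.9 and 40.0 with WT replicates 1 and 2, and 13.3 to 17.2 with the *Txnip-/-* libraries.

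The 10 genes, the lists and the alternatives were chosen with earlier results of these data known. All 10 genes were named whatever their values, and from each list the genes called and up to 3 others with the smallest unadjusted p under 0.05. Further list genes (*Apaf1*, *Xiap*, *Fas*, *Casp8*, *Cflar*, *Cdkn1a*, *Mdm2*, *Huwe1*, *Fbxw7*, *Usp9x*, *Foxo1*, *Foxo3*, *Mapk8*, *Mapk9*, *Dffb* and BCL2 relatives) were named for their roles after their values were seen. Copies were sought with blastn in GENCODE M21 transcripts. Alternatives were DESeq2 1.42.0, limma 3.58.1, other scalings, filters, thresholds, a replicate block, a term for WT replicates 1 and 2, and each library left out. The tests were checked on simulated data.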

Additional observations from a re-analysis of the deposited data

How the results depend on the processing

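The count of BCL2 family genes called stayed at 0 of 10 with DESeq2, limma-trend, RLE, upper quartile or no normalization factors, *Rn45s* left out, either other filter, the replicate block, the term for WT replicates 1 and 2, each library left out, and either other adjusted threshold. The count over all genes was 179 (66 higher, 113 lower). It was 302 with DESeq2, 346 with no filter on low counts, 108 with the replicate block, 89 to 367 with 1 library left out (367 without WT replicate 3, 89 without WT replicate 1, 95, 98 and 112 without *Txnip-/-* replicate 1, 2 or 3, and 96 without WT replicate 2) and 1336 at an unadjusted p under 0.05. With no normalization factors it was 36 higher and 150 lower. The labels link same-numbered libraries by a number only. Their deviations from the group means correlated at -0.030, 0.017 and -0.047, which cannot tell whether they were prepared together. The replicate block changed no call among the genes of the family and the *Bcl2a1* rows.

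Small differences turned sign. Given a coefficient for WT replicates 1 and 2, *Bcl2* was at 0.16 and *Bid* at -0.0069 on the log2 scale. *Bak1* was at 0.0029 with DESeq2, 0.0028 with RLE and 0.00030 with upper quartile factors. With 1 library left out the ranges were -0.58 to 0.12 for *Bcl2*, -0.078 to 0.060 for *Bak1*, -0.14 to 0.14 for *Bad* and -0.46 to 0.018 for *Bbc3*. The cause was not tested.

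For the other BCL2 family list the count of 1 became 0 with the term for WT replicates 1 and 2, 0 to 1 with 1 library left out, and 5 at an unadjusted p under 0.05. The inhibitor of apoptosis list gave 1 at an adjusted p under 0.1 and 1 at an unadjusted p under 0.05 (*Birc3*), the p53 list 2 at an unadjusted p under 0.05, and the list of upstream genes 0 to 1 with 1 library left out, with *Pim1* called at -0.40 on the log2 scale (edgeR, adjusted p = 0.00318) once WT replicate 3 was left out. *Pmaip1* (35 to 83 counts a library) and the *Bcl2a1a* row (3 to 25) rest on few counts.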
